A study of Mus musculus with 12 samples.

Results

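The Hox cluster genes encode homeodomain transcription factors and lie in 4 clusters, Hoxa on chromosome 6, Hoxb on chromosome 11, Hoxc on chromosome 15 and Hoxd on chromosome 2 of the mouse. They were measured by RNA sequencing in hematopoietic stem cells, the cells from which the blood descends. Members were chosen by symbol alone, as the rows of the deposited table whose Ensembl identifier matched Hoxa, Hoxb, Hoxc or Hoxd followed by digits. This gave 39 of the 35275 identifiers in the table, with 11 Hoxa, 10 Hoxb, 9 Hoxc and 9 Hoxd genes. All 12 libraries came from primary stem cells of C57BL/6 mice, sorted by flow cytometry, and fall into 4 groups of 3. Knockout mice (Thpo-/-), which lack the gene of the cytokine thrombopoietin, were given Romiplostim or left untreated, and so were wild-type mice (Thpo+/+). Romiplostim, an agonist of the thrombopoietin receptor, was injected into a vein for 10 days, at a daily dose of 100 µg/kg. The treatment label of the other mice reads untreated, whereas the treatment protocol names PBS for controls. The labels give neither the age nor the sex of the mice, nor the surface markers of the sort, and do not say that replicates are separate animals, so the p-values below measure the spread between these samples, which may be technical.

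Hox genes are numbered by their place in the cluster, and genes with the same number in different clusters, called paralogs, descend from a common ancestor. In the embryo they set position along the body axis, with low numbers acting towards the head. In blood formation, genes of the Hoxa and Hoxb clusters are active in stem and early progenitor cells and are turned down as cells mature. Hoxa9 is needed for normal stem cell function in mice and, together with its cofactor Meis1, drives leukemia when forced to stay on. Hoxb4 expands stem cells when overexpressed, and Hoxb5 has been used to mark long-term stem cells in the mouse. The proteins bind DNA through the homeodomain, usually beside a TALE homeodomain cofactor of the Pbx, Meis or Pknox families. Thrombopoietin has been reported to raise Hoxb4 expression and to move Hoxa9 into the nucleus of primitive blood cells.

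The coding sequence of the homeodomain is shown for Hoxa5 and for Hoxa10, one of the most abundant members. Hoxa5 is the tested member whose Romiplostim effect passed the test for a difference between genotypes. The homeoboxes were read from GENCODE M21 transcripts (mm10), each in a single exon. They lie at chr6:52202632-52202811 (Hoxa5) and chr6:52232554-52232733 (Hoxa10), both on the minus strand. Each runs 5′ to 3′ over 180 bases (60 residues), and capitals mark the codons of residues 42 to 58, the recognition helix that reads the DNA bases.
Hoxa5: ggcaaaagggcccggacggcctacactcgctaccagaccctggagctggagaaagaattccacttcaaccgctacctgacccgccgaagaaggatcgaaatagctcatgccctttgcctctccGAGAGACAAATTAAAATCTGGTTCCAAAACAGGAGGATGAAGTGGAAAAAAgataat
Hoxa10: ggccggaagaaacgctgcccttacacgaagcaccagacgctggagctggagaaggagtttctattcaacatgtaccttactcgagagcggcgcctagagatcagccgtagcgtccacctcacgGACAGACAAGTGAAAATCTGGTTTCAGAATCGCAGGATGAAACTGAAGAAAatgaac
The homeoboxes of Hoxa5 and Hoxa10, in the same cluster, matched at 61.7% of these bases, and at 76.5% of the bases of the recognition helix.

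Depth, estimated from the steps in low FPKM values, was 27.7 to 35.5 M fragments per library. Thpo itself was listed at 0 FPKM in 10 of 12 libraries, at 0.0426 in wild type given Romiplostim replicate 2 and at 0.0208 in untreated wild type replicate 3, so it cannot check the genotype labels here. The libraries differed in markers of other cells. The mean log2(FPKM + 1) over 7 lists of such markers was 3.44 ± 0.18 in knockout given Romiplostim, 5.55 ± 0.30 in untreated knockout, 2.17 ± 0.06 in wild type given Romiplostim and 2.51 ± 0.10 in untreated wild type (SD, n = 3 each). A list of 16 stem cell markers, which includes Hoxb5 and Meis1, ran the other way except between the wild-type groups, where both means were lower with Romiplostim. The stem list was at 5.29 ± 0.48 in knockout given Romiplostim and 4.31 ± 0.23 in untreated knockout. It was at 5.74 ± 0.09 in wild type given Romiplostim and 5.98 ± 0.14 in untreated wild type. In untreated knockout against untreated wild type, 13 of these 16 were lower and 0 higher, while all 12 B cell and all 8 macrophage markers were higher. Of all 12823 genes tested in this comparison, 22.1% were called higher and 23.0% lower. A list of 8 megakaryocyte markers was left out of the mean over 7 lists. It was at 4.84 ± 0.45 in untreated knockout and 5.30 ± 0.46 in untreated wild type, with 2 markers called lower and 0 higher. The summed FPKM of the stem list was 663 to 912 in untreated knockout against 2249 to 2842 in untreated wild type, and that of the B cell list was 1837 to 4362 in untreated knockout against 88.3 to 98.7 in untreated wild type. Among the listed markers of other cells, Cd8a was at 0 in 6 libraries, Pax5 in 5, Marco, Klrd1, Ncr1 and Prrx1 in 3, Prss34, Col3a1 and Bglap in 2, and Cd3e, Gzma, Fcer1a and Pdgfra in 1. In bulk RNA, fewer stem cells in the sample and less Hox RNA per cell cannot be told apart, and the part of the other cells in the Hox results was not tested.

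Expression was concentrated in a short stretch of the Hoxa cluster. The Hoxa genes supplied 90.1% to 94.9% of the summed Hox FPKM of a library, and Hoxa7, Hoxa9 and Hoxa10 alone 82.1% to 88.4%. Hoxa5, Hoxa7, Hoxa9 and Hoxa10 reached 1 FPKM in all 12 libraries. In untreated wild type Hoxa9 averaged 52.9 ± 10.6 FPKM, Hoxa7 34.5 ± 4.43, Hoxa10 23.1 ± 4.33, Hoxa5 7.13 ± 2.04 and Hoxb5 3.67 ± 0.33 (SD, n = 3). The order Hoxa9, Hoxa7, Hoxa10, Hoxa5 held for the means of 3 groups, while in wild type given Romiplostim Hoxa7 (40.6 ± 1.79) and Hoxa9 (40.1 ± 3.20) lay within their spread and Hoxb5 (4.37 ± 0.48) lay above Hoxa5 (3.53 ± 0.47). The highest Hoxb gene was Hoxb5, with at most 4.66 FPKM. The Hoxc cluster stayed at or below 1.46 FPKM, its highest gene being Hoxc6, and the Hoxd cluster at or below 0.381, reached by Hoxd8.

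**Figure D1:**
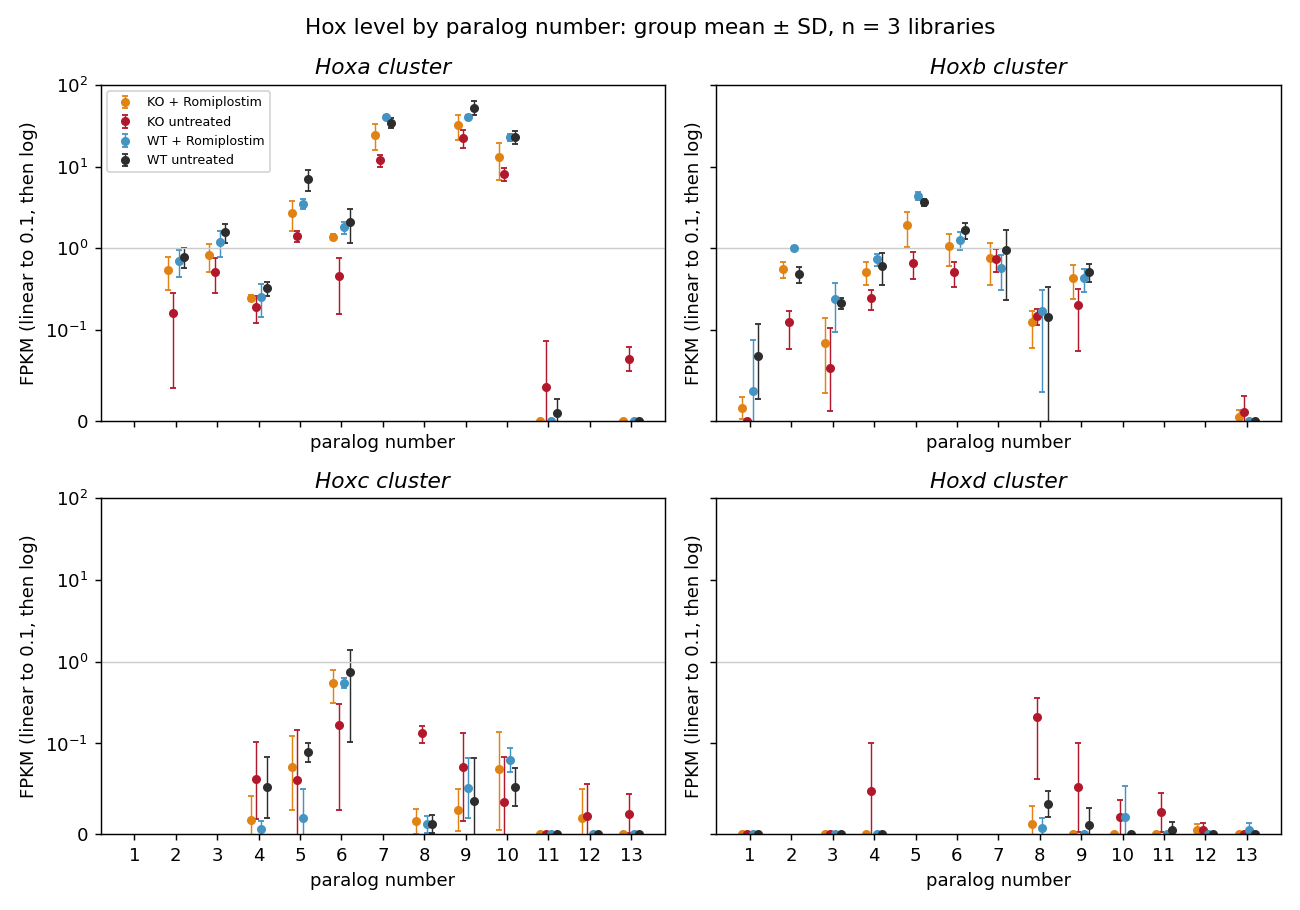
Mean FPKM with SD over 3 libraries (y axis, linear below 0.1 and logarithmic above) for the Hox genes by paralog number (x axis), with 1 panel per cluster and 1 color per group. The highest levels sit at Hoxa7, Hoxa9 and Hoxa10, and the grey line marks 1 FPKM.

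Within a cluster, the level differed by paralog number. In Hoxa, numbers 5 to 10 held all genes that reached 2 FPKM in a library, and Hoxa11 and Hoxa13 stayed under 0.1 FPKM in every library. Hoxb genes 2 to 9 were detected at low level, with Hoxb5 and Hoxb6 highest in untreated wild type, while Hoxb1 did not exceed 0.119 FPKM and Hoxb13 did not exceed 0.03. Of the 39 members, 27 stayed under 1 FPKM in every library and Hoxc11, Hoxd1 and Hoxd3 were listed at 0 throughout. Between these genes, 3 fragments correspond to 0.014 to 0.124 FPKM, and 8 members exceeded this floor in no library, so that their RNA was not detectable at this depth. Such floors cover counting error only, since the amplified fragments carry no molecular identifiers.

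**Figure D2:**
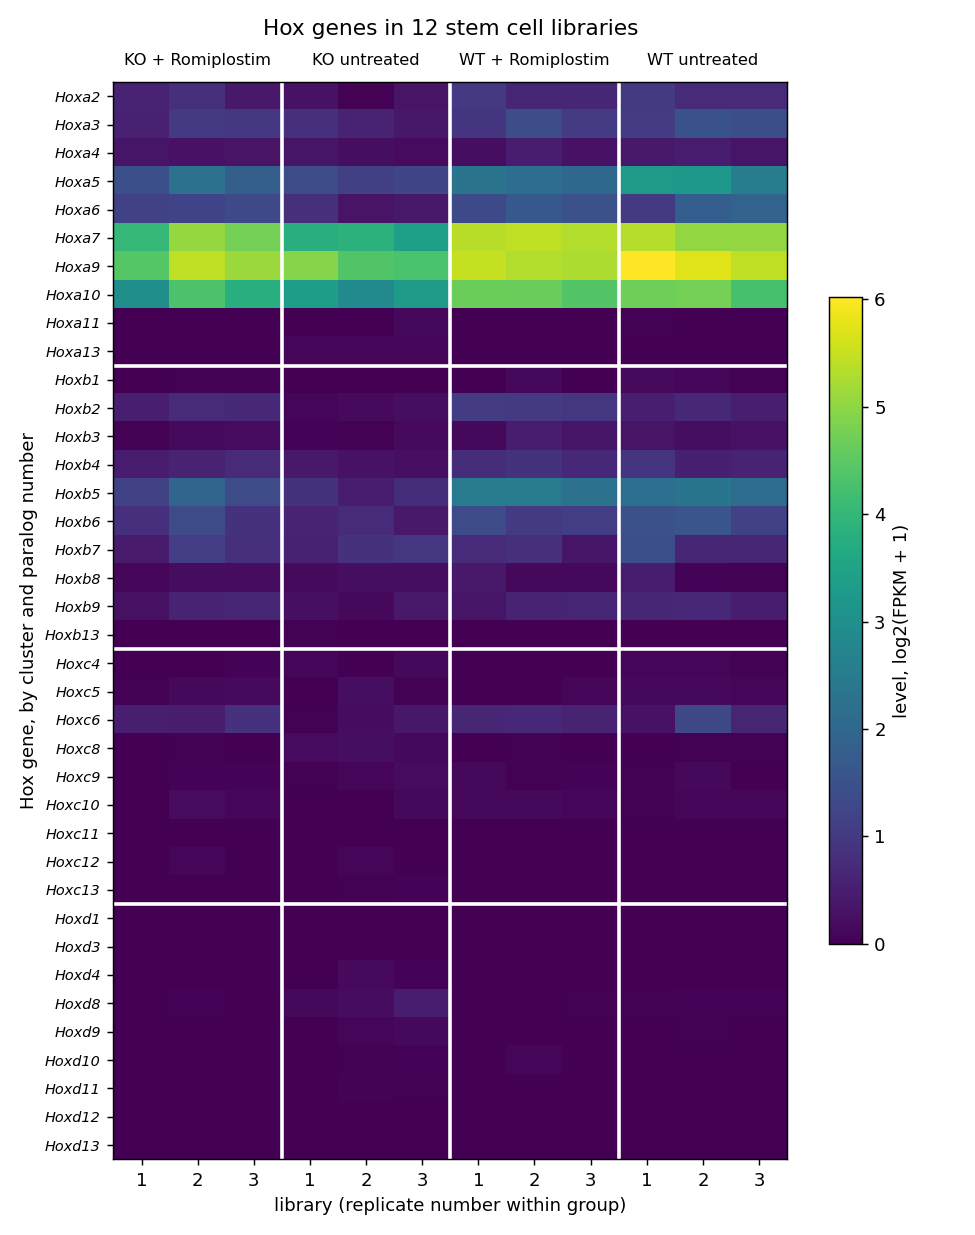
Level of the Hox genes, as log2(FPKM + 1) in color, by cluster and paralog number (rows) and by library (columns, 3 per group). Hoxa7, Hoxa9 and Hoxa10 are brightest in every group. They are darker in untreated knockout and in replicates 1 and 3 of knockout given Romiplostim than in the wild-type libraries.

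A total of 8 members had at least 1 FPKM in at least 3 libraries and were tested among 12823 genes, namely Hoxa3, Hoxa5, Hoxa6, Hoxa7, Hoxa9, Hoxa10, Hoxb5 and Hoxb6. The other 31 fell below the filter. Hoxa3, Hoxa6, Hoxb5 and Hoxb6 passed it through the other groups only, as no untreated knockout library reached 1 FPKM for them, so counts over the 8 genes describe the genes tested and are not evidence about the clusters. Differences are on the log2(FPKM + 1) scale, which understates those of low genes, with the standard error and the Benjamini-Hochberg adjusted p of limma's two-sided moderated test, called below 0.05. An exact permutation test of 3 against 3 libraries cannot go below a p of 0.1.

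Without treatment, the tested Hoxa and Hoxb genes were lower in knockout than in wild-type cells. Hoxa9, the most abundant member, had 29.2, 20.0 and 18.7 FPKM in knockout, against 63.8, 52.1 and 42.7 FPKM in wild type. Hoxa7, whose protein belongs to the middle group of paralogs, had 12.6, 13.6 and 9.66 FPKM in knockout, against 39.6, 31.8 and 32.1 FPKM in wild type. Hoxa10, a posterior paralog that also acts in myeloid progenitors, had 9.31, 6.39 and 8.78 FPKM in knockout, against 25.0, 26.2 and 18.2 FPKM in wild type. In all 3 genes every knockout library lay below every wild-type library. The log2 difference was -1.20 ± 0.25 for Hoxa9 (adjusted p = 0.00232), -1.46 ± 0.23 for Hoxa7 (adjusted p = 0.000395) and -1.39 ± 0.28 for Hoxa10 (adjusted p = 0.00196).

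As a share of the wild-type mean, the lowest levels among the tested genes were those of the number 5 paralogs. Hoxb5, the stem cell marker gene, had 0.847, 0.399 and 0.73 FPKM in knockout, against 3.58, 4.03 and 3.39 FPKM in wild type. Hoxa5 had 1.64, 1.21 and 1.38 FPKM in knockout, against 8.44, 8.17 and 4.78 FPKM in wild type. Their knockout means were 18.0% and 19.7% of the wild-type means, with Hoxa6 close to them at 21.65%. Hoxa9 had the highest share among the tested genes, 42.8%. The log2 difference was -1.50 ± 0.20 for Hoxb5 (adjusted p = 0.000143) and -1.73 ± 0.23 for Hoxa5 (adjusted p = 0.000151). Hoxa6 (-1.06 ± 0.23), Hoxb6 (-0.83 ± 0.19) and Hoxa3 (-0.75 ± 0.20) also fell, with adjusted p-values of 0.00288, 0.00386 and 0.0102. Whether the depth of the fall differs between the genes was not tested.

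All 8 tested members were thus called lower and 0 higher, in a comparison in which 45.1% of all tested genes were called, 22.1% higher and 23.0% lower. Their median log2 difference was -1.30, against -0.03 over all genes tested. Among the 36 members above 0 in some library, 14 had every knockout library below every wild-type library, 3 had every one above and the rest overlapped. For all genes above 0 in a library, 18.3% lay below and 18.6% above without overlap. The 14 were 7 Hoxa and 7 Hoxb genes, which added Hoxa2, Hoxb1, Hoxb2, Hoxb3, Hoxb4 and Hoxb9 to the tested ones. Hoxb1 was at 0 in untreated knockout, and its lowest untreated wild-type value, 0.024 FPKM, is an estimated 1.62 fragments, under the floor of 3. Hoxb4, the gene that expands stem cells, had 0.322, 0.218 and 0.19 FPKM in knockout, against 0.908, 0.453 and 0.482 FPKM in wild type. All 8 calls were kept in each fit that left out 1 library, and without untreated knockout replicate 3 together with treated knockout replicate 2. With a filter that asks for a mean of 5 FPKM only 3 members could be tested, and those 3 were called.

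**Figure D3:**
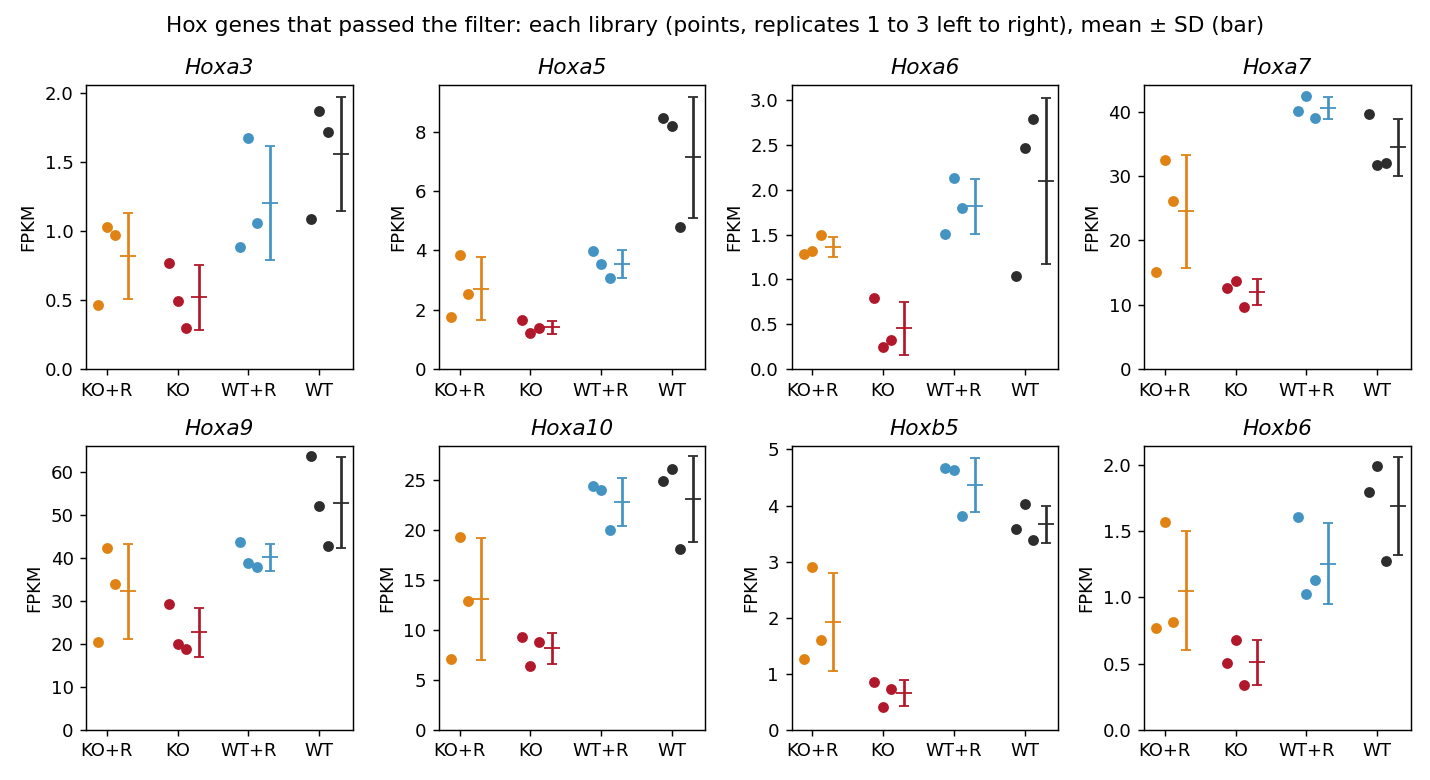
FPKM (y axis) of the 8 tested Hox genes in each library (points, replicates 1 to 3 from left to right) with mean and SD (bars), for knockout given Romiplostim (KO+R), untreated knockout (KO), wild type given Romiplostim (WT+R) and untreated wild type (WT). Untreated knockout points lie below all untreated wild-type points in every panel, and replicate 1 of KO+R is the lowest of its group in all 8.

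A few posterior and Hoxc or Hoxd genes went the other way at very low level. Hoxa13, a gene of the distal limb and hindgut in the embryo, had 0.0586, 0.0827 and 0.0618 FPKM in untreated knockout and was listed at 0 in the other 9 libraries. Hoxc8 had 0.129, 0.167 and 0.102 FPKM in untreated knockout, against 0, 0.0167 and 0.0168 FPKM in untreated wild type. Hoxd8 had 0.1, 0.151 and 0.381 FPKM in untreated knockout, against 0.0172, 0.0414 and 0.0416 FPKM in untreated wild type. These 3 genes exceeded 3 fragments in all 3 untreated knockout libraries. Hoxd4, Hoxd9 and Hoxd11 exceeded them in 2 of the 3 and in no other library. The Hoxa13 values correspond to an estimated 4.38 to 6.57 fragments. None of these genes passed the filter, so the main fit did not test them. They were singled out after their values were seen, so any call of them without a filter, given below, is not evidence.

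Markers of several other cells, stromal ones among them, were higher in the same libraries. Cxcl12, made by marrow stromal cells, had 62.0, 111 and 378 FPKM in untreated knockout, against 13.6, 9.23 and 0.747 FPKM in untreated wild type, and Lepr, a receptor of perivascular stromal cells, had 5.39, 9.16 and 32.9 FPKM in untreated knockout against 1.20, 1.14 and 0.141 FPKM in untreated wild type. Of the 16 listed stromal and endothelial markers 12 were tested, 10 being higher and 1 lower in untreated knockout. Over all tested genes 22.1% were called higher and 23.0% lower. The summed FPKM of the list was 329 to 949 in untreated knockout and 44.3 to 78.8 in untreated wild type. Hoxd8 and the stromal markers Cxcl12, Lepr and Pdgfra were all highest in untreated knockout replicate 3, whereas Hoxa13 and Hoxc8 were highest in replicate 2. C1qa, a complement gene of macrophages, was also highest in replicate 2, with 220, 337 and 117 FPKM in untreated knockout against at most 8.90 FPKM in untreated wild type. The order of these replicates rests on few fragments, an estimated 4.38, 6.57 and 4.38 for Hoxa13 in untreated knockout. For Hoxc8 it was an estimated 11.1, 15.2 and 8.31 fragments, so these ranks are not evidence of a source. The part of stromal, macrophage or other cells in the Hoxa13, Hoxc8 and Hoxd8 values was not tested.

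**Figure D4:**
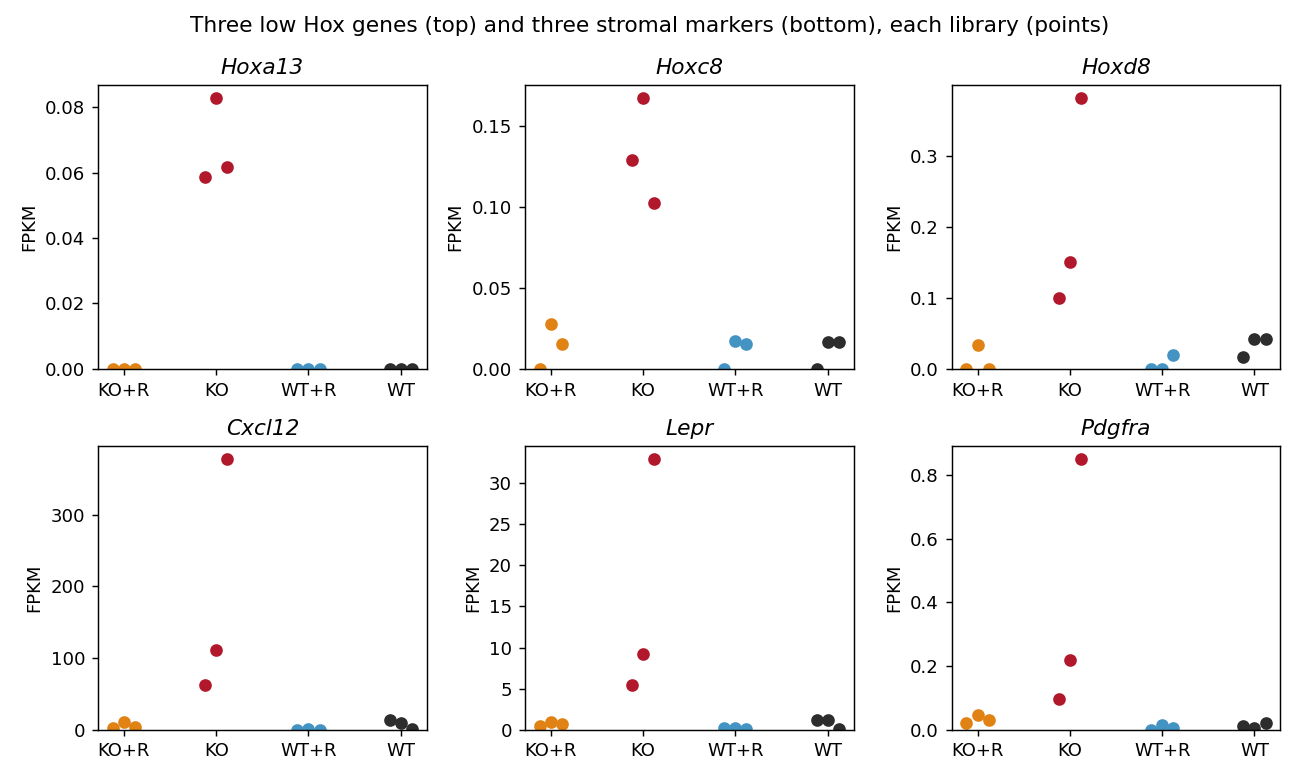
FPKM (y axis, from 0, a separate scale in each panel) of Hoxa13, Hoxc8 and Hoxd8 (top) and of the stromal markers Cxcl12, Lepr and Pdgfra (bottom) in each of 12 libraries. Untreated knockout (KO) lies above the other 3 groups in all 6 panels, and the Hox values stay under 0.4 FPKM.

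In knockout cells, Hoxa7, Hoxb5 and Hoxa6 rose with Romiplostim, with a wide spread between the treated libraries. Hoxa7 had 15.1, 32.5 and 26.2 FPKM in treated knockout, against 12.6, 13.6 and 9.66 FPKM in untreated knockout. Hoxb5 had 1.26, 2.91 and 1.59 FPKM in treated knockout, against 0.847, 0.399 and 0.73 FPKM in untreated knockout. Hoxa6, which lies between Hoxa5 and Hoxa7, had 1.28, 1.32 and 1.49 FPKM in treated knockout, against 0.794, 0.249 and 0.319 FPKM in untreated knockout. The groups did not overlap in any of these 3 genes. The log2 difference was 0.93 ± 0.23 for Hoxa7 (adjusted p = 0.011), 0.79 ± 0.20 for Hoxb5 (adjusted p = 0.0125) and 0.72 ± 0.23 for Hoxa6 (adjusted p = 0.0335).

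These 3 of 8 tested members were called higher and 0 lower, where 29.6% of all tested genes were called, 10.7% higher and 18.9% lower. Hoxa5 (0.59 ± 0.23, adjusted p = 0.0744), Hoxb6 (0.43 ± 0.19, adjusted p = 0.104), Hoxa10 (0.54 ± 0.28, adjusted p = 0.167), Hoxa9 (0.46 ± 0.25, adjusted p = 0.182) and Hoxa3 (0.26 ± 0.20, adjusted p = 0.357) had positive differences that did not pass the test. The median over the 8 was 0.56, against -0.09 over all genes tested. Of the 36 members above 0 in some library, 9 lay above and 3 below without overlap, where 9.43% and 17.5% of all such genes did so. The 3 below were again Hoxa13, Hoxc8 and Hoxd8, and Hoxb2, Hoxb4, Hoxa2 and Hoxc6 were among the 9 above.

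Treated knockout replicate 1 stood apart, as it had the lowest value of its group in all 8 tested members. Its Hoxa9 level was 20.4 FPKM, against 42.3 and 33.8 FPKM in replicates 2 and 3, and within the range of untreated knockout. The same library had the lowest stem cell marker level of its group (4.76 against 5.70 and 5.42) and the highest erythroid level (7.30 against 5.58 and 6.03). Its mast cell and basophil level was also the highest (2.66 against 1.67 and 1.82). Its B cell, myeloid, macrophage, T and NK cell, and stromal and endothelial levels were the lowest. So was its mean over the 7 lists of other cells (3.23 against 3.58 and 3.50). Without this library 5 members were called higher, with Hoxa5 (0.78), Hoxa9 (0.74) and Hoxa10 (0.89) joining Hoxa7 (1.23) and Hoxb5 (0.95). Hoxa6 no longer passed (0.74, adjusted p = 0.0513). Without treated knockout replicate 2 or 3, or untreated knockout replicate 3, 2 were called, and without untreated knockout replicate 2 only Hoxa7 was called, the adjusted p of Hoxb5 being 0.0545. The adjusted p of Hoxa6 was 0.0534 without treated knockout replicate 2, 0.0955 without its replicate 3, 0.113 without untreated knockout replicate 2 and 0.0861 without its replicate 3. When the library highest in other cell markers was dropped from each knockout group (replicate 2 of the treated and replicate 3 of the untreated), Hoxb5 alone was called (0.59, adjusted p = 0.035). Treated knockout replicate 2 also had the highest stem cell marker level of its group and the highest value in 7 of 8 tested members. That fit therefore does not isolate the other cells.

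Markers and sex-linked genes also differed between these groups. Of the 16 stem cell markers 12 were higher in treated than in untreated knockout and 0 lower, while all 12 B cell and all 8 macrophage markers were lower. Over all tested genes 10.7% were called higher and 18.9% lower. The mean level of 4 Y-linked genes was 0.00537 to 0.0389 FPKM in treated knockout and 11.3 to 24.9 FPKM in untreated knockout, so that this level and the treatment cannot be told apart within the knockout. With that level as a covariate, 0 Hox genes were called in this comparison, at log2 differences of 1.04 for Hoxa7, 0.63 for Hoxb5 and 0.69 for Hoxa6 (adjusted p-values of 0.0755, 0.185 and 0.215).

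**Figure D5:**
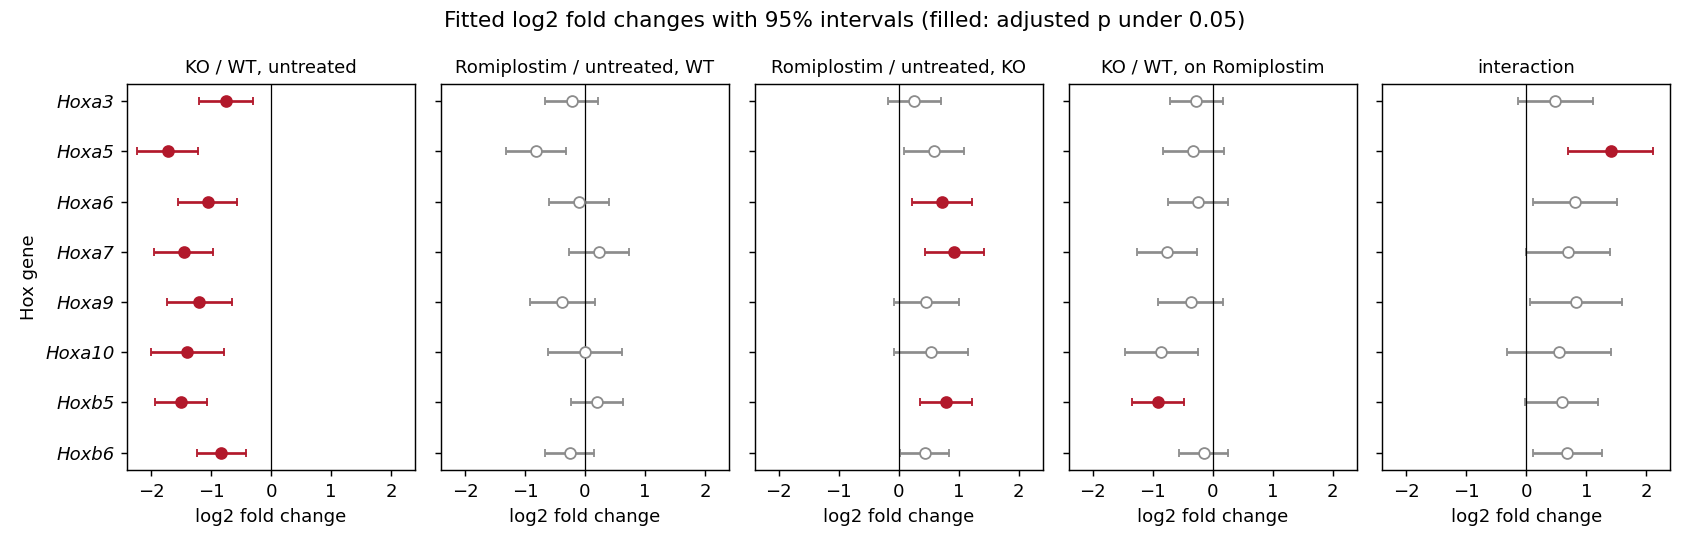
Fitted log2 differences (x axis) with 95% intervals for the 8 tested Hox genes in 5 contrasts, the group named before the slash over the one after it. The interaction is the Romiplostim difference in knockout minus that in wild type. Filled points passed an adjusted p of 0.05, which 8, 0, 3, 1 and 1 genes did from left to right.

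With both genotypes on Romiplostim, Hoxb5 was the 1 tested member called lower in knockout than in wild-type cells, and many alternatives lost that call. Hoxb5 had 1.26, 2.91 and 1.59 FPKM in treated knockout, against 4.66, 4.63 and 3.82 FPKM in treated wild type, a log2 difference of -0.91 ± 0.20 (adjusted p = 0.0483). In this comparison 1.37% of all tested genes were called, 0.632% higher and 0.741% lower. Hoxa7 (-0.77 ± 0.23, adjusted p = 0.112) and Hoxa10 (-0.85 ± 0.28, adjusted p = 0.138) did not overlap between the groups either but did not pass the test. Of the 36 members above 0 in some library 5 (Hoxa6, Hoxa7, Hoxa10, Hoxb2 and Hoxb5) lay below without overlap and 0 above, where 9.78% and 6.43% of all such genes did so. All 8 differences were negative, with a median of -0.34 against -0.07 over all genes tested. The Hoxb5 call was lost without treated knockout replicate 1 (adjusted p = 0.109) or 3 (0.112) and without treated wild type replicate 1, 2 or 3 (0.156, 0.212 and 0.131). It was also lost with a pseudocount of 0.1 (0.0618), without a filter (0.139), after quantile normalization (0.0513), with the replicate block (0.0636), with only the libraries compared (0.167) and with the Y-linked level as a covariate (0.196). That level was 0.00537 to 0.0389 FPKM in treated knockout, and 0.0221, 18.5 and 21.2 FPKM in treated wild type. Without treated knockout replicate 2, Hoxa7, Hoxa10 and Hoxb5 were called. Relative to untreated wild type, the mean levels of the 8 genes were 37.9% to 71.2% in treated knockout, 18.0% to 42.8% in untreated knockout and 49.4% to 119% in treated wild type.

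In wild-type cells, Romiplostim gave no call among the 8 tested members by limma, and 1 of them, Hoxa5, had an unadjusted p under 0.05. In this comparison 1.84% of all tested genes were called, 0.866% higher and 0.975% lower. Hoxa5 had 3.99, 3.54 and 3.05 FPKM in treated wild type, against 8.44, 8.17 and 4.78 FPKM in untreated wild type. The groups did not overlap, but the log2 difference of -0.82 ± 0.23 did not pass the test (adjusted p = 0.117). In a fit of the 6 wild-type libraries with the replicate number as a block, added after the data were seen, it passed (adjusted p = 0.0411). Hoxa9 had 43.7, 38.8 and 37.8 FPKM in treated wild type, which overlaps the untreated wild type values above (-0.37 ± 0.25, 95% interval -0.92 to 0.17). Hoxa7 (0.23 ± 0.23, -0.26 to 0.73), Hoxa10 (-0.0042 ± 0.28, -0.62 to 0.61) and Hoxb5 (0.20 ± 0.20, -0.23 to 0.63) had intervals that include both rises and falls.

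Hoxb2, an anterior Hoxb gene below the filter, had more RNA with the agonist in either genotype. It had 1.05, 1.02 and 0.932 FPKM in treated wild type, against 0.418, 0.603 and 0.418 FPKM in untreated wild type. It had 0.424, 0.661 and 0.602 FPKM in treated knockout, against 0.0833, 0.118 and 0.176 FPKM in untreated knockout. Treated libraries lay above untreated libraries of the same genotype in both cases. Hoxb2 was picked out after these values were seen, so the calls that follow are not independent evidence for it. In the fit without a filter Hoxb2 was called higher with Romiplostim in wild type (0.44 ± 0.08, adjusted p = 0.0387) and in knockout (0.47 ± 0.08, adjusted p = 0.00434), and lower in untreated knockout than in untreated wild type (-0.39 ± 0.08, adjusted p = 0.00533). Its exons overlap those of the opposite-strand gene Hoxb3os over 27.3% of their length, and the library kit does not mark the strand, so reads of both genes cannot be told apart there. In treated wild type Hoxa5, Hoxc4 and Hoxc5 lay below without overlap, as did 11.8% of all genes above 0. Hoxb2 was the 1 member above, where 6.40% of all such genes did so. Hoxc4 and Hoxc5 were near the floor, at most 0.0832 and 0.0966 FPKM in the wild-type libraries. Hoxc4 exceeded 3 fragments in 0 treated wild-type libraries and Hoxc5 in 1. The nearest Hoxc4 values, 0.0161 FPKM treated and 0.0167 FPKM untreated, each correspond to an estimated 1.25 fragments, so their order reflects depth.

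The effect of Romiplostim differed between the genotypes for Hoxa5. The log2 difference between treated and untreated cells was 0.59 ± 0.23 in knockout and -0.82 ± 0.23 in wild type, and the difference of these differences was 1.40 ± 0.33 (adjusted p = 0.0164). It was called in each fit that left out 1 library, with 1.19 to 1.63, and was lost with the Y-linked level as a covariate (1.15, adjusted p = 0.114). Hoxa5 was the 1 called member, where 15.6% of all tested genes were called, 5.53% being positive and 10.0% negative calls. In the same contrast 8 of the 16 stem cell markers were called positive and 0 negative. All 8 macrophage and 10 of 12 B cell markers were called negative and 0 positive, while 1 erythroid marker was positive. The part of these shifts in the Hoxa5 result was not tested. All 8 Hox estimates were positive, from 0.48 for Hoxa3 to 1.40 for Hoxa5, with a median of 0.69 against -0.05 over all genes tested. The mean log2(FPKM + 1) of the 8 Hox genes was also set against that of 14 stem cell markers, without Hoxb5 and Meis1. The Hox level less the marker level was -3.049 ± 0.128 in treated knockout and -2.595 ± 0.184 in untreated knockout. It was -2.965 ± 0.146 in treated wild type and -3.051 ± 0.173 in untreated wild type (SD, n = 3 each). Without treated knockout replicate 1, Hoxa5, Hoxa7 and Hoxa9 were called, and without untreated wild type replicate 1, Hoxa5 and Hoxa6. The contrasts share control libraries, so that the values of 1 gene in different contrasts are not independent of each other.

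The order of the libraries within a group was most alike across the tested members in treated knockout, where replicate 2 was highest in 7 of 8 and replicate 1 lowest in all 8. In untreated knockout, replicate 1 was highest in 6 of 8, and the lowest value fell on replicates 2 and 3 in 4 members each. In treated wild type, replicate 1 was highest in 5 members and replicate 2 in 3. In untreated wild type, the highest value fell on replicate 1 in 3 members, on replicate 2 in 4 and on replicate 3 in 1. The summed Hox FPKM was 50.8, 110 and 84.9 in treated knockout, 57.9, 45.8 and 44.1 in untreated knockout, 126, 124 and 112 in treated wild type and 151, 134 and 111 in untreated wild type.

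Among the TALE cofactors that bind DNA with Hox proteins, Meis1 and Pbx3 fell and Pknox1 rose in untreated knockout. Of the 9 listed, 8 were tested, and against untreated wild type 3 were lower and 1 higher, a share near the 45.1% called over all tested genes, with a median of -0.25 against -0.03 over all genes tested. Meis1, the partner of Hoxa9, had 60.5, 38.3 and 35.9 FPKM in untreated knockout, against 114, 136 and 121 FPKM in untreated wild type (-1.48 ± 0.27, adjusted p = 0.00116). Pbx3 (-0.84 ± 0.17, adjusted p = 0.00229) also fell, while Pknox1 rose (0.53 ± 0.12, adjusted p = 0.004). Pknox1 had 11.5, 13.5 and 12.5 FPKM in treated knockout, against 25.2, 22.6 and 20.0 FPKM in untreated knockout (-0.81 ± 0.12, adjusted p = 0.000727). Romiplostim went with a large fall of Meis3 in either genotype, to 0.355, 1.20 and 0.706 FPKM in treated knockout against 3.72, 4.90 and 5.61 FPKM in untreated knockout (-1.73 ± 0.19, adjusted p = 0.000123). In treated wild type Meis3 had 0.731, 0.664 and 0.581 FPKM, against 6.81, 5.25 and 6.35 FPKM in untreated wild type (-2.10 ± 0.19, adjusted p = 0.000273). Between treated knockout and treated wild type 0 cofactors were called by limma, with 3 of them, Meis1 and Pbx3 included, at an unadjusted p under 0.05.

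A list of 23 genes linked to the activation of Hox genes, such as the Kmt2a complex and its partners, held 19 that were tested. Whether each listed gene activates Hox genes in these cells was not tested. Of the 19, 3 were lower and 3 higher in untreated knockout than in untreated wild type (median 0.08). These 6 of 19 are a smaller share than the 45.1% called over all tested genes. Mllt3, a partner in Kmt2a fusions and a stem cell maintenance gene that also stands in the stem cell list, had 25.6, 23.0 and 24.1 FPKM in untreated knockout, against 63.5, 91.4 and 78.3 FPKM in untreated wild type (-1.63 ± 0.18, adjusted p = 5.32e-05). Mllt10 (-0.59 ± 0.18) and Aff4 (-0.46 ± 0.16) were the other 2 lower, and Rbbp5, Kat7 and Brpf1 the 3 higher (0.41 to 0.50). With Romiplostim in knockout, Mllt3 (1.23 ± 0.18, adjusted p = 0.000752), Npm1 (0.81 ± 0.17, adjusted p = 0.00472) and Dpy30 (0.42 ± 0.12, adjusted p = 0.0203) rose, and Men1, Rbbp5, Kat7 and Brpf1 fell by 0.44 to 0.59, where 10.7% of all tested genes were called higher and 18.9% lower. The embryonic activators Cdx2 and Cdx4 were listed at 0 FPKM in all 12 libraries, as were the ParaHox genes Gsx1, Gsx2 and Pdx1, so none of the 3 ParaHox genes was tested.

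Of the 17 listed Polycomb genes, whose complexes keep Hox clusters silent, all were tested. In untreated knockout against untreated wild type Ezh2 (0.81 ± 0.17, adjusted p = 0.00266), Phc2 (0.72 ± 0.13, adjusted p = 0.00104) and Suz12 (0.43 ± 0.14, adjusted p = 0.0291) rose, and Cbx6 and Phc1 fell by 0.91 and 0.66. These 5 of 17 are a smaller share than the 45.1% called over all tested genes. With Romiplostim in knockout 4 of 17 fell and 0 rose, where 18.9% and 10.7% of all tested genes did so, and those that fell included Phc2 (-0.82 ± 0.13), Cbx2 (-0.70 ± 0.24) and Ezh1 (-0.55 ± 0.15), with adjusted p-values of 0.00114, 0.0471 and 0.0162. In wild type given Romiplostim 0 genes of the activator list and 0 Polycomb genes were called by limma, with Mllt3, Bmi1 and Jarid2 at an unadjusted p under 0.05. Polycomb medians were 0.05 in the first of these comparisons and -0.30 in the second, against -0.03 and -0.09 over all genes tested.

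The tested noncoding genes inside the clusters were lower in untreated knockout. Of 22 annotated genes other than Hox genes inside the clusters with FPKM values, 3 were tested, all noncoding, and all 3 were lower than in untreated wild type, as were 23.0% of all tested genes. Hoxb5os, transcribed from the strand opposite Hoxb5, had 1.84, 2.06 and 1.67 FPKM in untreated knockout, against 11.5, 14.4 and 8.93 FPKM in untreated wild type (-2.12 ± 0.19, adjusted p = 1.22e-05). It had 7.27, 11.8 and 9.72 FPKM in treated knockout, against those untreated knockout values (1.87 ± 0.19, adjusted p = 6.65e-05). Hotairm1, a noncoding gene of the Hoxa cluster studied in myeloid cells, and Hoxaas3 fell by 0.90 ± 0.18 and 0.72 ± 0.15 in untreated knockout (adjusted p-values of 0.00196 and 0.00256). Hoxb5os shares 100 bases, 3.59% of the Hoxb5 exons, with Hoxb5, and Hoxaas3 shares 586 bases, 20.4% of the Hoxa7 exons, with Hoxa7. Without strand, reads in these stretches cannot be assigned, and the Hoxa3, Hoxa4 and Hoxb3 values carry the same limit.

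The promoters of Hoxa5, whose Romiplostim effect passed the test for a difference between genotypes, and Hoxa9, the most abundant member, are shown. They are the 250 bases before the RefSeq start (GRCm38.p6), 5′ to 3′ on the minus strand, at chr6:52204588-52204837 and chr6:52227371-52227620. The RefSeq table held 22 of the 39 members and 6 of the 8 tested ones. Capitals mark a CCAAT box, found on the other strand at bases -204 to -200.
Hoxa5: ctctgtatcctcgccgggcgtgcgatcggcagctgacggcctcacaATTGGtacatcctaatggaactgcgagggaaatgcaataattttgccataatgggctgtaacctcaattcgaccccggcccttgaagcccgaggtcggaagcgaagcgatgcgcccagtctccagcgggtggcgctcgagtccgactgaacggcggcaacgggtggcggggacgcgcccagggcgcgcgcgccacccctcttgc
Hoxa9: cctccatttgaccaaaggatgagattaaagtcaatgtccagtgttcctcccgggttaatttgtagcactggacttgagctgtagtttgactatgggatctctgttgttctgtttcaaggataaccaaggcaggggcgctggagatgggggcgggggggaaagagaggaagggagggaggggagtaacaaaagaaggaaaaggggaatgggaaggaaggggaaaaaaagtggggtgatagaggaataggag
Both strands were searched for TGATTNAT (a Hox and Pbx composite site), TGACAG (a Meis site), TATAAA and CCAAT, and no hits overlapped. Hoxa5 held the 1 CCAAT and 28 CG dinucleotides, and Hoxa9 held none of the 4 motifs and 3 CG dinucleotides. Among all 32851 RefSeq promoters of this length, 2.82%, 15.9%, 12.4% and 33.8% held the 4 motifs in that order, and the median promoter had 6 CG dinucleotides. A match is a description of these letters only.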

How the data were processed

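The deposited table gives FPKM values (fragments scaled to gene length and library depth), computed by the authors for each gene and library. The submitters' processing notes name TopHat2, Cufflinks 2.2.1 and the build mm10, without parameters, and the annotation release is not given in the sources used here. Total RNA of sorted cells was amplified with a low-input kit and sequenced as paired reads, per the labels' protocols. Of 35275 identifiers, 34490 matched GENCODE M21 on the same build, which gave symbols and positions, and 8754 were at 0 in all 12 libraries. No 2 columns were identical.

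Depth was recovered from the steps of low FPKM values with merged exon lengths. Between 46.6% and 52.8% of values under 50 fragments were whole within 0.05, so that depth is an estimate and no count test was run. A floor of 3 fragments follows from it.

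FPKM was converted to log2(FPKM + 1) and genes with at least 1 FPKM in at least 3 libraries (12823) were fitted with limma 3.58.1 (R 4.3.3) over all 12 libraries, with a trend in the empirical Bayes step. Tests were two-sided with Benjamini-Hochberg adjustment over all genes tested per contrast, called below 0.05. The script recovered known changes in simulated data. Members above the filter are named, with library values where called or where a group mean reached 5 FPKM, and other members are given by range. Of companion lists the called genes are named. Some genes and homeobox sequences that these rules select are not reported here, and the counts include them. Hoxb2, Hoxb4, Hoxa13, Hoxc8 and Hoxd8 are named with library values although they fall outside this rule, chosen after their values were seen. The members and the lists of companions and markers were chosen with earlier results of these data known. Alternatives changed the pseudocount, filter, scaling, trend, libraries fitted and replicate block. Shared replicate numbers have no stated meaning in the labels. Of 18 correlations between the deviations of same-numbered libraries from their group means 6 exceeded 0.1 (-0.19 to 0.40), and treated and untreated wild type was the 1 pair of groups in which all 3 did (0.403, 0.123 and 0.383). Homeodomain proteins were not used here, and homeobox bases stand in their place.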

Additional observations from a re-analysis of the deposited data

Results flagged for a closer look

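The Romiplostim difference in knockout less that in wild type passed limma's test for 6 of the genes described here, which marks effects that differ between the genotypes. It was 1.40 for Hoxa5 (adjusted p = 0.0164), 1.35 for the antisense gene Hoxb5os (adjusted p = 0.00789) and -0.75 for the cofactor Pknox1 (adjusted p = 0.0147). Hoxb5os had 7.27, 11.8 and 9.72 FPKM in treated knockout and 1.84, 2.06 and 1.67 FPKM in untreated knockout, with 17.8, 16.6 and 16.0 FPKM in treated wild type and 11.5, 14.4 and 8.93 FPKM in untreated wild type. Pknox1 had 14.3, 14.5 and 15.3 FPKM in treated wild type and 14.9, 14.4 and 16.8 FPKM in untreated wild type. For Mllt3, Cbx2 and Phc2 it was 1.65, -1.12 and -0.89 (adjusted p-values of 0.00358, 0.0458 and 0.011). No cause was tested.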

How the results depend on the processing

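The 8 lower Hox calls in untreated knockout were kept in every fit except the filter at a mean of 5 FPKM, which left 3 members to test and called 3, and the fit without a filter called 14 (11 lower and 3 higher). For Romiplostim in knockout the 3 Hox calls, all higher, became 6 without a filter, 3 higher (Hoxa7, Hoxb2 and Hoxb5) and 3 lower (Hoxa13, Hoxc8 and Hoxd8, all under 0.4 FPKM), with Hoxa6 lost (adjusted p = 0.071), 1 with the mean filter, 7 after quantile normalization, 4 with a pseudocount of 0.1 or median-of-ratios scaling, 1 with only the libraries compared, 1 without the 2 libraries highest in other cell markers (untreated knockout replicate 3 and treated knockout replicate 2) and 0 with the Y-linked covariate, and leaving out 1 library gave 1 to 5. The last 2 alternatives were chosen after the data were seen. For knockout against wild type on Romiplostim the 1 Hox call became 0 with a pseudocount of 0.1, no filter, the mean filter, quantile normalization, only the libraries compared, the Y-linked covariate or the replicate block, became 3 without the 2 libraries, and ran from 0 to 3 with 1 library left out. For Romiplostim in wild type 0 Hox calls became 1 without a filter (Hoxb2, higher) and 1 with the replicate block in a fit of the wild-type libraries alone (Hoxa5, lower), an alternative also chosen after the data were seen, in which the 236 calls over all genes became 864. For the interaction 1 Hox call became 3 without a filter, the 2 added ones being negative (Hoxa13 at -0.09 and Hoxc8 at -0.16, against 1.40 for Hoxa5), 0 with the mean filter, 4 after quantile normalization and 0 with the Y-linked covariate, and ran from 1 to 3 with 1 library left out. Unless shown by the number of genes or libraries used, the cause was not tested.

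Over all genes, the 5779 calls of untreated knockout against wild type stayed within 1.5 times in every alternative. The 3797 calls of Romiplostim in knockout became 2021 with only the libraries compared and 1059 with the Y-linked covariate, and 2214 to 4305 with 1 library left out. The 236 calls of Romiplostim in wild type became 96 with the mean filter, 628 with only the libraries compared and 434 without the 2 libraries, and 62 to 117 with 1 left out. The 176 calls of knockout against wild type on Romiplostim became 326 with a pseudocount of 0.1, 57 without a filter, 98 with the mean filter, 270 after quantile normalization, 57 with only the libraries compared, 1755 without the 2 libraries and 28 with the Y-linked covariate, and 30 to 1565 with 1 left out. The 1996 interaction calls became 487 with the Y-linked covariate and 1093 to 2687 with 1 left out. The share of higher calls for Romiplostim in knockout was 36.3%, and 47.5% and 58.2% after median-of-ratios scaling and quantile normalization. For the interaction it was 35.5%, and 55.5% after quantile normalization. The median difference of all genes for Romiplostim in knockout was -0.09, and 0.07 after quantile normalization, and that of the interaction -0.05 and 0.08.

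The uncalled difference of Hoxa10 with Romiplostim in wild type turned positive at 0.052 after median-of-ratios scaling and 0.018 after quantile normalization, and ran from -0.16 to 0.091 with 1 library left out. That of Hoxa6 ran from -0.37 to 0.077. With the replicate block over all 12 libraries every count over all genes stayed within 1.5 times, and the 3797 calls of Romiplostim in knockout became 3787, and of the Hox calls only Hoxb5 on Romiplostim was lost (adjusted p = 0.0636).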
